A study of Rattus norvegicus with 7 samples.

Results

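Metallothioneins are small, cysteine-rich proteins that bind zinc, copper and cadmium, and Mtf1 is the zinc-finger transcription factor that senses free zinc and switches their genes on. The genes followed here were Mt1, Mt2A, Mt3 and Mtf1. The members were the probe sets that the platform annotation assigned to 1 of these 4 genes alone: 6 of 31042 probe sets other than controls, namely 1 each for Mt1, Mt2A and Mt3 and 3 for Mtf1. These 4 genes stand among 14217 that have a probe set of their own. The rule itself reads only the annotation.

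RNA of whole testes from adult male Sprague-Dawley (SD) rats, an outbred stock with no genetic change named, had been hybridized to 7 arrays. The groups were untreated rats (0 h, n = 3), rats killed 8 h after cadmium chloride (n = 2) and rats killed 20 h after it (n = 2), given once into the peritoneum at 3 mg per kg. The labels name no injection of vehicle in the untreated rats. Each array is labelled a biological replicate and was taken as 1 animal, so precision is limited by how few arrays there are.

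As background, Mtf1 binds short promoter sequences called metal response elements when zinc is plentiful. Cadmium is thought to act on it mainly by displacing zinc from metallothionein and other proteins. Mt1 and Mt2A are the broadly expressed, metal-inducible metallothioneins of rodents, whereas Mt3 is known best from brain and responds weakly to metals there. In the rodent body the testis is known as one of the organs most sensitive to a cadmium injection.

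None of the 4 genes showed a change that passed the test. At 8 h and at 20 h after the dose, limma called 0 of these 6 probe sets at an adjusted p under 0.05, against a background of 0% of the 20857 probe sets tested in either comparison. Without the hybridization day in the fit, 95% intervals of the fold change reached up to 1.34-fold for Mt2A and 1.70-fold for Mt1 at 8 h. At 20 h they reached up to 1.47-fold and 1.91-fold. With the day added to the fit, the upper ends were 1.43-fold and 2.23-fold at 8 h, and 1.37-fold and 1.87-fold at 20 h. Untreated replicate 2 was alone on its day and so carries no weight in that fit. Set against the untreated array hybridized on the same day, Mt1 and Mt2A were higher on all 4 cadmium arrays, a pattern that 12.2% of all probe sets shared.

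The upstream sequences of the 3 metallothionein genes are shown because they carry the sites through which Mtf1 is known to act. They are the 250 bases before the annotated gene start, 5′ to 3′ on the gene's strand, from RefSeq on the GRCr8 build; all 4 genes had an entry. Capitals mark the core of the metal response element, searched as TGCACNC and TGCGCNC on both strands; cores on the opposite strand read as their reverse complement. The Mt1 window is chr19:10832976-10833225, the Mt2A window chr19:10838709-10838958 and the Mt3 window chr19:10856081-10856330, all on the minus strand.
Mt1: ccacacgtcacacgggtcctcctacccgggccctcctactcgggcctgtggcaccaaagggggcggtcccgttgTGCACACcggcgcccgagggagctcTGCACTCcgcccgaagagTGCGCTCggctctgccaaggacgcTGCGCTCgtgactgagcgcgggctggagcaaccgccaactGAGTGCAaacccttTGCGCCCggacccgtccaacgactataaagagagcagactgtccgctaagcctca
Mt2A: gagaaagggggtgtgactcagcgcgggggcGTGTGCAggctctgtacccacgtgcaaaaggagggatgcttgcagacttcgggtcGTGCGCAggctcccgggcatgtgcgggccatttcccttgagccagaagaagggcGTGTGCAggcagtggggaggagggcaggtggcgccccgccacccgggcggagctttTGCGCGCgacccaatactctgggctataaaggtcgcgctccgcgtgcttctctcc
Mt3: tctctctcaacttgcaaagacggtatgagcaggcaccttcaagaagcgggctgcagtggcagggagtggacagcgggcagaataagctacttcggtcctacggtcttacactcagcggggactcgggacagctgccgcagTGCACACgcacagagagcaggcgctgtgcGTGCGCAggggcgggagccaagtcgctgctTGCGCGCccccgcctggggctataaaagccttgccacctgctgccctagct

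Mt1 held 6 cores, 5 of them on its own strand and the nearest starting 55 bases before the gene start. Mt2A held 4 cores, of which 3 lay on the opposite strand, at 220, 165 and 111 bases before the start, and 1 on its own strand at 55 bases. Mt3 held 3 cores, at 110, 81 and 51 bases. Mtf1, on the plus strand at chr5:142346804-142347053, held 2 cores, at 249 and 51 bases. Of 33465 windows of the same length, 20.6% held at least 1 core, 4.89% at least 2, 1.17% held at least 3, 0.263% at least 4 and 0.0269%, or 9 windows, at least 6. The cores of these 4 windows did not overlap each other. A match of these letters is a description of the sequence and not a measured binding site.

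**Figure D1:**
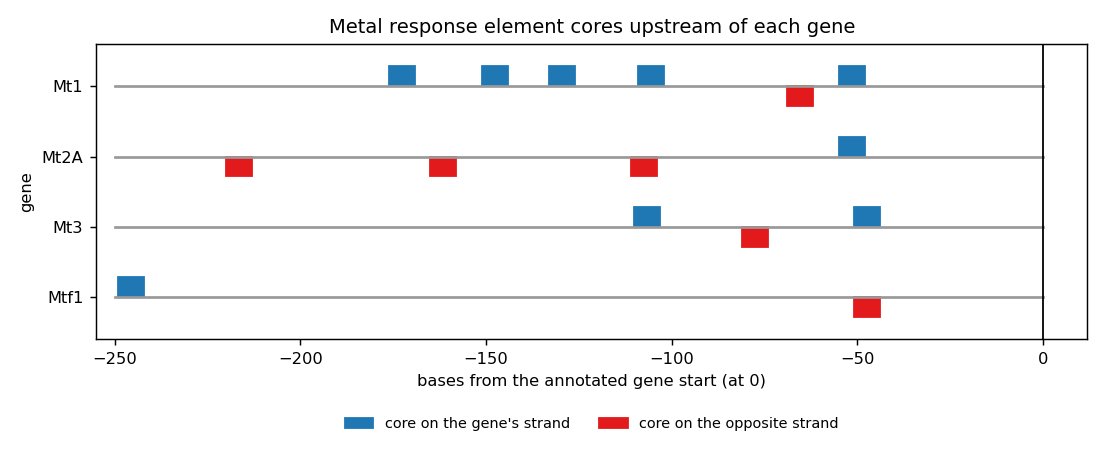
Position of metal response element cores in the 250 bases upstream of Mt1, Mt2A, Mt3 and Mtf1. The horizontal axis gives bases from the annotated gene start, at 0; blocks above each line are cores on the gene's strand and blocks below it are cores on the opposite strand. Mt1 has 6 cores, Mt2A 4, Mt3 3 and Mtf1 2, and the core nearest the start begins at 55 bases for Mt1 and Mt2A and at 51 for Mt3 and Mtf1.

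Values are the deposited signals, a brightness per probe set on a linear scale that had been brought to the same trimmed mean, 250.1, on each array; the median signal ran from 52.9 to 72.0. Log2 values are of signal + 15, which understates the change of dim probe sets. Brightness of different probe sets is not compared as an amount of RNA, since each has its own binding strength. A percentile, or the word dim or bright, describes the signal of a probe set only. Hybridization took 3 days, per the experiment files. Day 1 held untreated replicate 1 with 20 h replicate 1, and day 2 held only untreated replicate 2. Day 3 held the remaining 4 arrays: untreated replicate 3, the 8 h pair and 20 h replicate 2. Untreated replicate 2 was also stained under an older protocol, and its experiment file names mouse as the sample type where the labels name a rat. Markers of the testis were present: 9 of 10 spermatid, 8 of 11 Sertoli cell and 6 of 6 Leydig cell markers passed the filter on low values. Of 7 epididymis markers 2 had a probe set, and 0 passed. To pass the filter, a probe set had to exceed the 40th percentile of 2 or more arrays; all 6 members stood above it on all 7 arrays, so none entered through 1 group.

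Mt2A, one of the 2 main inducible metallothioneins, had a signal of 4204.8, 4593.2 and 3717.1 on the untreated arrays, 4383.7 and 4160.4 on the 8 h arrays, and 5589.3 and 3949 on the 20 h arrays. The highest value was that of 20 h replicate 1 and the lowest that of untreated replicate 3. Both 8 h arrays and the other 20 h array lay inside the untreated range. At 8 h Mt2A averaged 4272 ± 158 (SD, n = 2), against 4172 ± 439 (SD, n = 3) in untreated testis, a log2 fold change of 0.04 ± 0.17 (SE; limma, adjusted p = 0.975). At 20 h it averaged 4769 ± 1160 (SD, n = 2), a log2 fold change of 0.18 ± 0.17 (SE; limma, adjusted p = 0.999). Both differences were smaller than the spread between arrays; quantile normalization turned the 8 h value to -0.15, and leaving out 20 h replicate 1 turned the 20 h value to -0.07. The 95% interval of the fold change ran from 0.789 to 1.34 at 8 h and from 0.867 to 1.47 at 20 h.

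Mt1, the other inducible metallothionein, was read by a dim probe set, 1388267_a_at, which stood between the 49.2th and 64.6th percentile of its arrays. Its signal was 109.3, 110.0 and 54.9 on the untreated arrays, 108.4 and 74.1 on the 8 h arrays, and 128.8 and 81.1 on the 20 h arrays. As for Mt2A, 20 h replicate 1 was highest and untreated replicate 3 lowest, and the other 3 cadmium arrays lay inside the untreated range. The mean was 91.25 ± 24.3 (SD, n = 2) at 8 h and 91.4 ± 31.6 (SD, n = 3) in untreated testis, a log2 fold change of 0.03 ± 0.33 (SE; limma, adjusted p = 0.99). At 20 h the mean was 104.95 ± 33.7 (SD, n = 2), a log2 fold change of 0.19 ± 0.33 (SE; limma, adjusted p = 0.999). The spread of Mt1 within groups was wide, a residual SD of 0.431 on the log2 scale against a median of 0.268 over all probe sets. Its intervals were correspondingly wide, from 0.611- to 1.70-fold at 8 h and from 0.685- to 1.91-fold at 20 h.

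Mt3, the metallothionein known from brain, was read by a bright probe set, between the 92.9th and 94.6th percentile of its arrays. It had 1147.0, 1223.6 and 1456.8 on the untreated arrays, 1333.7 and 1551.2 on the 8 h arrays, and 1473.1 and 1639.4 on the 20 h arrays. Both 20 h arrays lay above all 3 untreated arrays, as did 4.65% of all probe sets, while 8 h replicate 1 lay inside the untreated range. The mean was 1442 ± 154 (SD, n = 2) at 8 h, against 1276 ± 161 (SD, n = 3) in untreated testis, a log2 fold change of 0.18 ± 0.15 (SE; limma, adjusted p = 0.842). At 20 h the mean was 1556 ± 118 (SD, n = 2) and the log2 fold change 0.29 ± 0.15 (SE; limma, adjusted p = 0.999). Its 95% interval ran from 0.963- to 1.55-fold. Among the untreated arrays Mt3 was highest on replicate 3, the array on which Mt1 and Mt2A were lowest.

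Mtf1, the metal sensor itself, was read by 3 probe sets, which differed in how much they varied. The first, 1377124_at, had 1700.1, 1931.5 and 2024.5 on the untreated arrays, 1921.7 and 1875.8 on the 8 h arrays, and 1748.5 and 1969.0 on the 20 h arrays. All 4 cadmium arrays lay inside the untreated range, and the highest of the 7 signals was 1.19 times the lowest. Its residual SD, 0.110 on the log2 scale, stood at the 8.2th percentile of the probe sets tested. The log2 fold change was 0.01 ± 0.14 (SE; limma, adjusted p = 0.989) at 8 h and -0.02 ± 0.14 (SE; limma, adjusted p = 0.999) at 20 h, with 95% intervals of 0.817- to 1.25-fold and 0.798- to 1.22-fold.

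The second Mtf1 probe set, 1393372_at, ranged from 135.6 on untreated replicate 1 to 180.9 on 8 h replicate 2, and its log2 fold changes were 0.07 ± 0.20 (SE) at 8 h and 0.13 ± 0.20 (SE) at 20 h. The third, 1390574_at, was dim: 73.4, 52.5 and 68.8 on the untreated arrays, 88.8 and 94.9 on the 8 h arrays, and 82.4 and 66.5 on the 20 h arrays. Both 8 h arrays lay above all 3 untreated arrays for this probe set, as did 7.59% of all probe sets. Its log2 fold change at 8 h, 0.43 ± 0.25 (SE; limma, adjusted p = 0.836), stood beside 0.01 and 0.07 for the other Mtf1 probe sets. Whether the 3 probe sets read the same transcripts is not given in the sources used here.

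**Figure D2:**
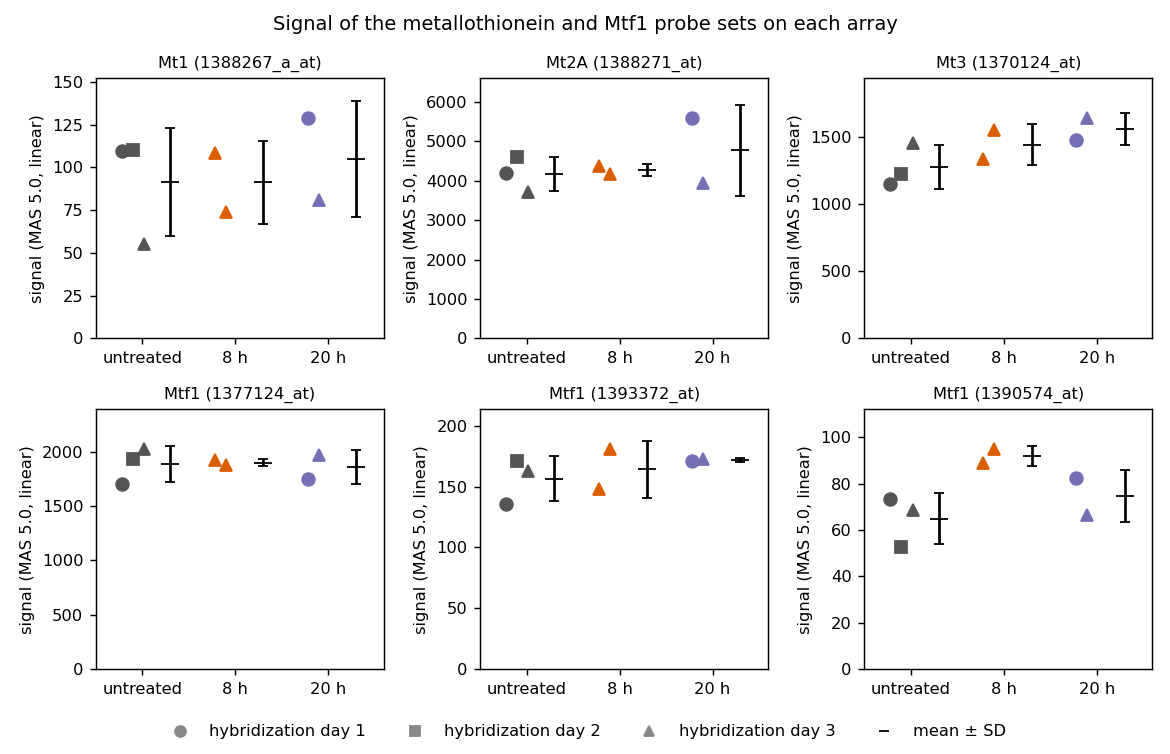
Signal of each of the 6 probe sets on the 7 arrays, on a linear axis that starts at 0, by group along the horizontal axis. Coloured points are single arrays, their shape gives the hybridization day, and the black bar beside them is the mean ± SD of the group (n = 3, 2 and 2). The groups overlap in most panels; Mt3 at 20 h and Mtf1 1390574_at at 8 h lie above all 3 untreated arrays.

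Considered together, 6 of 6 probe sets had a higher mean log2 value at 8 h and 5 of 6 at 20 h, though quantile normalization turned Mt2A and Mtf1 1377124_at negative at 8 h. The median log2 fold changes were 0.05 and 0.17. Over all probe sets tested the same medians were -0.08 and -0.05, and 39.0% and 41.2% of them were higher. The number with an unadjusted p under 0.05 in limma was 0 of 6 at either time, against 5.22% of all probe sets at 8 h and 3.11% at 20 h. The 2 comparisons share the untreated arrays, and the 3 Mtf1 probe sets share a gene, so these counts are not independent. The F test over the 3 groups gave unadjusted p-values from 0.20 for Mt3 to 0.98 for Mtf1 1377124_at in limma, where 3.02% of all probe sets had one under 0.05.

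In the fit without the day, no member differed between the times by more than its standard error. The log2 difference of 20 h from 8 h was 0.14 ± 0.19 (SE) for Mt2A, 0.16 ± 0.36 (SE) for Mt1, 0.11 ± 0.17 (SE) for Mt3 and -0.03 ± 0.15 (SE), 0.06 ± 0.21 (SE) and -0.26 ± 0.27 (SE) for Mtf1 1377124_at, 1393372_at and 1390574_at, each with an adjusted p of 1 in limma. In this comparison 0 of 6 members had an unadjusted p under 0.05, against 1.92% of all probe sets, and 0% of all passed the adjusted threshold. Without 20 h replicate 1 the differences of Mt1 and Mt2A turned to -0.13 and -0.11. With the day as a block Mt3 was 0.23 ± 0.13 (SE) and Mtf1 1390574_at -0.35 ± 0.28 (SE), both beyond their standard errors, with an adjusted p of 1 in limma.

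Taking both times together, the 4 cadmium arrays averaged 1499 ± 130 (SD, n = 4) for Mt3, against 1276 ± 161 (SD, n = 3) in untreated testis. An exact two-sided permutation test over the 7 arrays gave p = 0.114 for Mt3, with all 4 cadmium arrays above the untreated mean, and p = 0.114 for Mtf1 1390574_at. The same exact permutation test gave p = 0.571 for Mt2A, 0.80 for Mt1, 0.914 for Mtf1 1377124_at and 0.40 for Mtf1 1393372_at. With 35 regroupings the smallest p it can give is 0.0286. In limma the pooled log2 fold changes were 0.23 ± 0.13 (SE) for Mt3, 0.11 ± 0.14 (SE) for Mt2A and 0.11 ± 0.28 (SE) for Mt1. Of the 6 members, 0 had an unadjusted p under 0.05, against 4.90% of all probe sets, and 0% of all passed. These pooled values take no account of the hybridization day. With the day as a block, Mt2A had a pooled log2 fold change of 0.26 ± 0.08 (SE), an interval of 1.05- to 1.37-fold, with an unadjusted p of 0.011 and an adjusted p of 0.679 in limma. It was the 1 member with an unadjusted p under 0.05 there, a level that 7.23% of all probe sets reached. Untreated replicate 2, alone on day 2, adds nothing to the comparison with untreated in that fit.

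**Figure D3:**
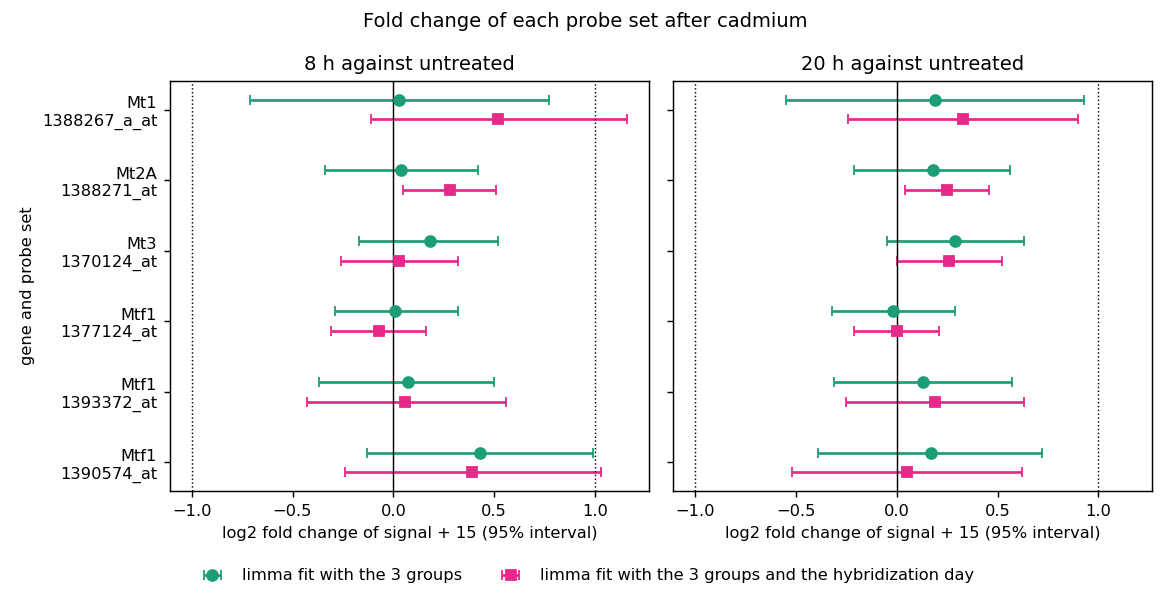
Log2 fold change of signal + 15 for the 6 probe sets at 8 h (left) and at 20 h (right) against untreated, with 95% intervals from limma. Circles are from the fit with the 3 groups and squares from the fit that adds the hybridization day; the dotted lines mark a change of 2-fold. Without the day no interval reaches 2-fold, and with it those of Mt1 and Mtf1 1390574_at at 8 h do.

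Read against the untreated array of the same day, Mt1 and Mt2A gave other values than against the untreated mean. With 1 untreated array a day, day and animal cannot be told apart. On day 3, with 1 untreated array, Mt1 exceeded it by 0.82 and 0.35 on the 8 h arrays and by 0.46 on the 20 h array, on the log2 scale. On day 1 it exceeded the untreated array by 0.21 on 20 h replicate 1. The same differences of Mt2A were 0.24, 0.16 and 0.09 on day 3 and 0.41 on day 1. Both genes were thus higher on 4 of 4 cadmium arrays, as were 12.2% of all probe sets, and 3 of the 4 differences rest on the same array, untreated replicate 3, which had the lowest signal of both genes.

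With the day added to the limma fit as a block, Mt2A had a log2 fold change of 0.28 ± 0.10 (SE) at 8 h, an interval of 1.03- to 1.43-fold, with an unadjusted p of 0.023 and an adjusted p of 0.805. At 20 h the same fit in limma gave 0.25 ± 0.09 (SE), an interval of 1.03- to 1.37-fold, an unadjusted p of 0.024 and an adjusted p of 0.848. Unadjusted p-values under 0.05 were reached by 6.11% of all probe sets at 8 h and 5.74% at 20 h in that fit. Mt1 had 0.52 ± 0.28 (SE) at 8 h, an interval of 0.924- to 2.23-fold, and 0.33 ± 0.25 (SE) at 20 h, an interval of 0.849- to 1.87-fold. The fit keeps 2 residual degrees of freedom. Untreated replicate 2 was the only array of day 2, so it does not bear on these fold changes. They rest on untreated replicates 1 and 3, the same untreated arrays as the same-day differences.

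Mt3 did not follow this pattern. Its same-day differences were -0.13 and 0.09 on the 8 h arrays and 0.36 and 0.17 on the 20 h arrays, so that 3 of 4 were positive, as for Mtf1 1393372_at and 1390574_at and for 24.4% of all probe sets. With the day as a block its log2 fold change was 0.03 ± 0.13 (SE) at 8 h and 0.26 ± 0.12 (SE) at 20 h (limma, unadjusted p = 0.049, adjusted p = 0.848). Mtf1 1377124_at differed by -0.07, -0.11 and -0.04 on day 3 and by 0.04 on day 1, and the day block gave -0.07 ± 0.11 (SE) at 8 h and 0.00 ± 0.09 (SE) at 20 h. Actin's 3′ over 5′ signal, a control for degraded RNA and short labelling products, had a log2 value of 1.191 to 1.422 on day 3, and of 0.733 to 0.985 otherwise; its part in these values was not tested.

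**Figure D4:**
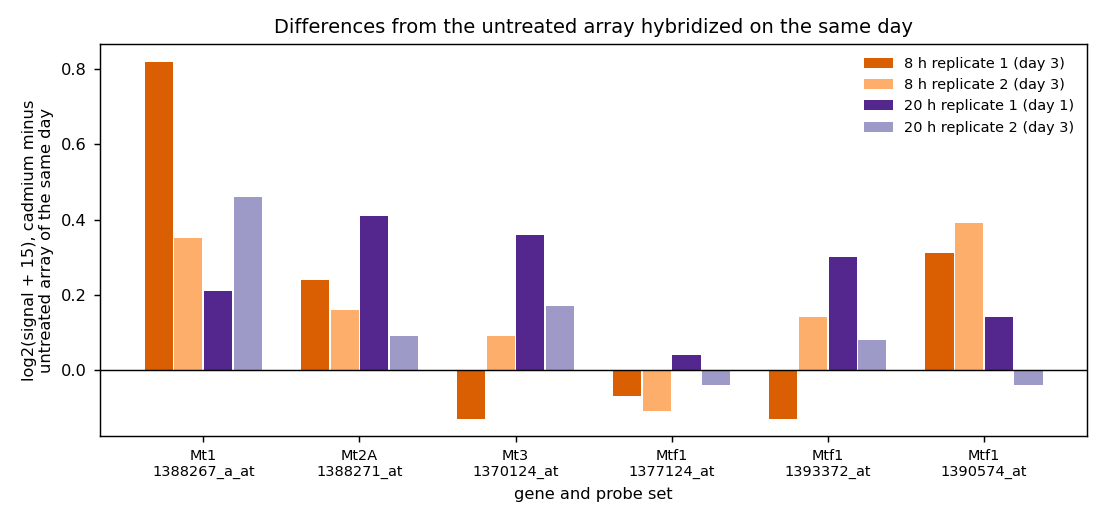
Same-day differences in log2(signal + 15), cadmium array minus untreated array, for the 6 probe sets. Each bar is 1 array, with the 8 h arrays left of the 20 h arrays; 3 of the 4 bars of a probe set share untreated replicate 3. All 4 bars of Mt1 and Mt2A lie above 0, while Mtf1 1377124_at stays between -0.11 and 0.04.

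The other genes that Mtf1 is known to regulate, mainly from work in mice, were followed as a list of 9 symbols, 8 of them measured. At 8 h 3 of the 8 were higher and 5 lower (median log2 fold change -0.12), and at 20 h 5 were higher and 3 lower (median 0.11). Over all probe sets the medians were -0.08 and -0.05, and 39% and 41.2% were higher. In limma 0 of 8 passed in either direction at both times, and 0 had an unadjusted p under 0.05. Of all probe sets 0% passed at either time, and 5.22% and 3.11% had such an unadjusted p. Slc30a1, which exports zinc from the cell and is induced by Mtf1 in mice, had 123.2, 108.0 and 34.0 on the untreated arrays, 28.9 and 60.3 on the 8 h arrays, and 129.3 and 38.0 on the 20 h arrays. Its high values were those of untreated replicates 1 and 2 and 20 h replicate 1, which are the 3 arrays of days 1 and 2. Its upstream window holds 2 cores of the metal response element, as does that of Csrp1; 4.89% of windows hold at least 2. The window of Pgf holds 1 core, and those of Gclc, Selenow, Slc39a10 and Hamp hold 0.

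Pgf, a placental growth factor, had a log2 fold change of -0.38 ± 0.52 (SE) at 8 h, and was dim, between 7.5 and 50.2. Hamp, the iron hormone hepcidin, had the largest fold change of the list at 20 h, 0.79 ± 0.48 (SE; limma, adjusted p = 0.999), with signals between 15.3 and 84.2. Ndrg1, induced by stress and by metals, stood at 628.6 on the 20 h replicate 1 array, the other 6 arrays giving 404.3 to 448.5.

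Among zinc transporters of the Slc30 family, which move zinc out of the cytosol, 4 of 8 measured genes were higher at 8 h and 3 of 8 at 20 h, with medians of -0.03 and -0.11; 0 passed in limma and 0 had an unadjusted p under 0.05. Besides Slc30a1, the widest differences were those of Slc30a5 at 8 h, -0.26 ± 0.20 (SE), and of Slc30a6 and Slc30a7 at 20 h, -0.40 ± 0.23 and 0.19 ± 0.27 (SE). Among Slc39 importers and the divalent metal transporter Slc11a2, 4 of 12 were higher at 8 h and 3 of 12 at 20 h, with medians of -0.02 and -0.12; 0 passed in limma and 0 had an unadjusted p under 0.05. Slc39a8, a zinc importer that also carries cadmium, gave 260.7, 312.7 and 222.2 on the untreated arrays, 112.3 and 297.7 on the 8 h arrays, and 90.6 and 237.7 on the 20 h arrays, so that 1 array at each time was low. Slc39a2 had -0.74 ± 0.36 (SE) at 8 h and Slc39a7 -0.37 ± 0.19 (SE) at 20 h. Beside both families, 39% of all probe sets were higher at 8 h and 41.2% at 20 h, with medians of -0.08 and -0.05. Of all probe sets 0% passed at either time in limma, and 5.22% and 3.11% had an unadjusted p under 0.05.

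Stress genes known to respond to cadmium had a median log2 fold change of 0.14 at 8 h and at 20 h over 12 measured genes, with 8 of 12 higher and 0 passed at either time in limma; 0 had an unadjusted p under 0.05 at 8 h and 1 at 20 h. Over all probe sets 39.0% and 41.2% were higher, and 5.22% and 3.11% had such a p. The gene counted at 20 h was Gadd45a, induced by growth arrest and DNA damage, named after its values were seen. It had 142.2, 145.2 and 142.6 on the untreated arrays, 187.2 and 161.0 on the 8 h arrays, and 329.0 and 193.0 on the 20 h arrays. Both 8 h arrays lay above all 3 untreated arrays, as did 7.59% of all probe sets. Both 20 h arrays did so too, as did 4.65% of all probe sets. Its log2 fold change at 20 h was 0.76 ± 0.23 (SE; limma, unadjusted p = 0.0092, adjusted p = 0.999). Hmox1, the heme oxygenase, showed how much the cadmium arrays differed: it had 358.5, 396.0 and 234.6 on the untreated arrays, 613.5 and 250.2 on the 8 h arrays, and 1604.7 and 217.2 on the 20 h arrays. Atf3, a stress-induced transcription factor, was at most 6.0 on the untreated arrays, 38.5 and 24.8 on the 8 h arrays, and 129.1 and 4.0 on the 20 h arrays. Hspa1a, the inducible heat shock protein, had a log2 fold change of 0.66 ± 0.48 (SE) at 8 h, which rests on 8 h replicate 1. Its signal was 175.4, 160.0 and 201.4 on the untreated arrays, and 580.2 and 140.9 on the 8 h arrays. The array on which Hmox1 and Atf3 were highest, 20 h replicate 1, was also the one on which Mt1 and Mt2A were highest. On it Mt2A had 5589.3, against at most 4593.2 on the untreated arrays, and Mt1 had 128.8, against at most 110.0. Over the untreated array of its day, Mt2A was higher there by 0.41, the largest of its 4 same-day differences. Mt1 was higher by 0.21, the smallest of its 4. A link between these genes was not tested.

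**Figure D5:**
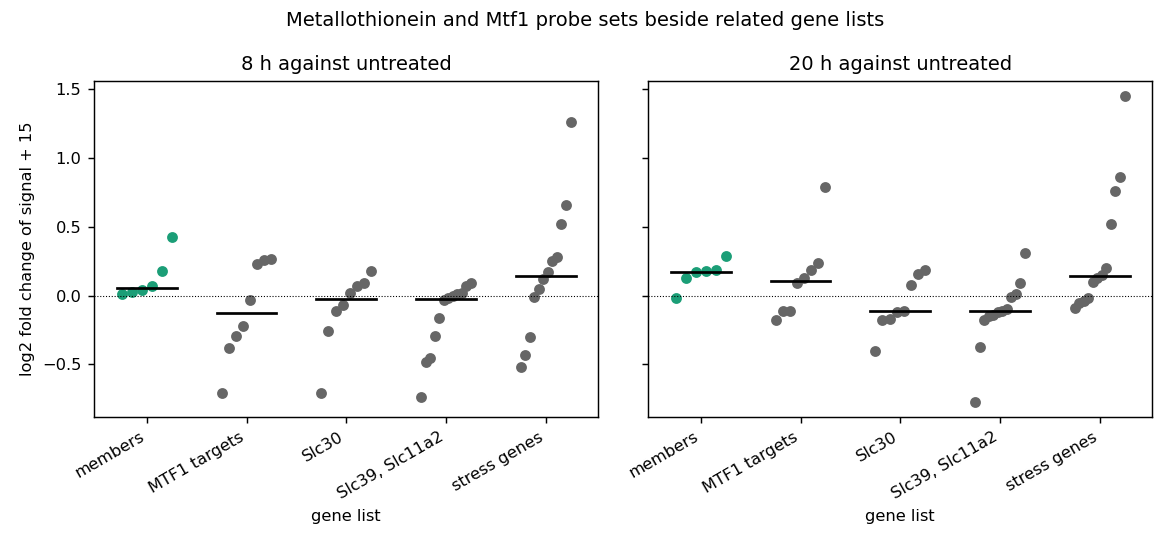
Log2 fold change of signal + 15 at 8 h (left) and at 20 h (right) against untreated, for the 6 metallothionein and Mtf1 probe sets and for 4 lists of related genes, with 1 point for each probe set or gene. Horizontal bars are medians. The members lie between -0.02 and 0.43, inside the span of the stress genes, which reaches 1.26 at 8 h and 1.45 at 20 h for Atf3.

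Of the markers of testis and other cell types, 0 passed in limma. The summed signal of 8 of 8 macrophage markers was 4611 to 5047 in untreated testis. It was 5263 to 5377 at 8 h and 5377 to 5388 at 20 h. Of these markers, 6 of 8 were higher at 8 h and 7 of 8 at 20 h, against 39% and 41.2% of all probe sets. The largest log2 fold changes were 1.28 ± 0.51 (SE) for C1qb at 8 h and 1.01 ± 0.29 (SE) for Cd163 at 20 h. Most of the summed signal came from Aif1, at 3706.7 to 3975.4 on the cadmium arrays and 3216.4 to 3766.3 on the untreated arrays. Csf1r was lower, at 70.8 to 110.0 against 122.9 to 128.9. The summed signal of 7 of 8 endothelial markers was 563.4 to 631.4 in untreated testis. It was 257.8 to 504.0 at 8 h and 167.7 to 572.4 at 20 h, overlapping at 20 h. This sum includes Pecam1, which did not pass the filter. Of the other 6, 0 were higher at either time, against 39% and 41.2% of all probe sets, with median log2 fold changes of -0.78 and -0.85. The sum of 6 of 6 Leydig cell markers was 7090 to 10984 at 8 h and 2469 to 7261 at 20 h, against 5871 to 8145 in untreated testis, overlapping at both times. Of these markers, 5 of 6 were higher at 8 h and 1 of 6 at 20 h, with median log2 fold changes of 0.33 and -0.75. The mean log2 value was higher at either time for 9 of the 9 measured markers of spermatids. Their sums overlapped, at 157310 to 165158 at 8 h and 116067 to 166911 at 20 h, against 109327 to 166123 in untreated testis, and each marker was lowest on the 3 arrays of days 1 and 2. These tissues were read as a whole, so fewer cells of a type and less RNA per cell cannot be told apart, and the part of cell makeup in the metallothionein signals was not tested.

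The genes on either side of the metallothionein cluster on chromosome 19 were also followed, where a probe set passed the filter. On the Mt1 side these were Nup93, a nucleoporin, Herpud1, an endoplasmic reticulum stress protein, and Nlrc5, a regulator of MHC class I genes. On the Mt3 side they were Bbs2, a ciliary protein, Ogfod1, a prolyl hydroxylase of the ribosome, and Nudt21, a cleavage factor of mRNA. Their log2 fold changes lay between -0.37 ± 0.38 (SE, Nlrc5) and 0.26 ± 0.19 (SE, Herpud1) at 8 h and between -0.23 ± 0.34 (SE, Ogfod1) and 0.12 ± 0.38 (SE, Nlrc5) at 20 h, and 0 of 6 passed in limma. Nup93 and Bbs2 varied least, from 1004.7 to 1133.7 and from 927.0 to 1058.6 over the 7 arrays.

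The genes whose pattern over the 7 arrays was most like each member were found by Pearson's r of log2(signal + 15) over 15826 probe sets with 1 gene (15824 for Mtf1); the points share the scaling of each array and the hybridization days. For Mt2A they were Ero1a, an oxidase of the endoplasmic reticulum (r = 0.982), Rps6kc1, a protein of the S6 kinase family (0.976), and Zfp36, which promotes decay of cytokine mRNAs (0.966). Without 20 h replicate 1 the same r were 0.935, 0.937 and 0.870. Ero1a had 294.1 on that array and between 70.4 and 147.7 on the other 6. For Mt1 they were Yaf2 (0.989), Mrpl38 (0.986) and Kifap3 (0.983), all lowest on untreated replicate 3 and highest on 20 h replicate 1. For Mt3 they were Car8 (0.970), Ak7 (0.969) and Ttc1 (0.960), all lowest on untreated replicate 1. For Mtf1 1377124_at they were Bub3 (0.986), Slco3a1 (0.986) and Tbrg4 (0.985), all highest on untreated replicate 3. An r of at least 0.95 was reached by 45 probe sets for Mt1, 12 for Mt2A, 6 for Mt3 and 23 for Mtf1 1377124_at. With 7 arrays and so many probe sets compared, the named r are high by selection.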

How the data were processed

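Biotin-labelled RNA of rat testis had been hybridized to Affymetrix Rat230_2 arrays, per the labels and file headers. The deposited values are linear signal intensities, 1 per probe set. MAS 5.0 and GeneSpring 7.2 stand in the series' design text, and MAS5 in the submitters' processing notes; which one scaled the values is not given in the sources used here. The experiment files hold other information, namely instrument settings, per the file headers.

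Of 31042 probe sets other than controls, 20857 passed the filter, 15827 of them with 1 gene. Values were taken as log2(signal + 15), 15 lying near the 20th percentile of all values, 14.7, with no further normalization. All 3 groups entered 1 fit in limma 3.58.1 under R 4.3.3 (lmFit, then eBayes with a trend; 4 residual and 5.48 prior degrees of freedom). Benjamini-Hochberg adjustment ran over all 20857, at a threshold of 0.05, and intervals are at 95%. The fit was tested on simulated data.

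The members, lists and tests were chosen with earlier results of these data known. Named were all members, the 3 genes most like each member, the 2 largest changes per pathway list and time, and 3 measured genes on each side of the cluster. Which of these are given with their signals was chosen after the values were seen. Of 6 red cell markers, 3 passed the filter, with median log2 fold changes of -0.02 at 8 h and -0.06 at 20 h. At 20 h 2 of them were lower, while Hbb, a hemoglobin chain, had 0.64 ± 0.30 (SE). Hbb had 2954 and 1764.9 on the 20 h arrays, against 1038 to 1958.1 on the untreated arrays. Alternatives were other pseudocounts, filters and normalizations, no trend, the day or the replicate number as a block, and leaving out each array. The promoter table is RefSeq's on GRCr8; the build behind the probe sets is not given in the sources used here, and protein sequences were not used here.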

Additional observations from a re-analysis of the deposited data

How the results depend on the processing

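In limma, 0 of the Mt1, Mt2A, Mt3 and Mtf1 probe sets passed the adjusted threshold under the alternatives that gave a p-value. Of 242 member fold changes recomputed with all arrays or within a day, 20 had the opposite sign, as did 20 of 168 with an array left out. Part of these could not change sign. Another filter or no trend leaves a fold change as it is, as does leaving out an array of a group not compared. The counts are therefore no measure of how stable the direction was. The direction of small log2 fold changes was not stable; the cause was not tested. With the replicate number as a block, 8 h against untreated gave -0.25 for Mt1 and -0.04 for Mt2A, 20 h gave -0.08 for Mt1 and 0.03 for Mtf1 1377124_at, and both times together gave -0.17 for Mt1 and 0.33 for Mt3 (limma, unadjusted p = 0.018, adjusted p = 0.235). The labels do not say that these numbers pair the animals. Differences of replicate 1 from 2 correlated at 0, 0.09 and 0.14 between groups. This cannot decide the question, since replicates 1 and 2 also differed in hybridization day in the untreated and 20 h groups. With the day as a block, Mtf1 1377124_at turned to -0.07 at 8 h, and 20 h against 8 h turned to -0.19 for Mt1, -0.03 for Mt2A and 0.07 for Mtf1 1377124_at. Quantile normalization gave -0.15 for Mt2A and -0.08 for Mtf1 1377124_at at 8 h, and -0.04 for Mt2A over both times. It raised Mtf1 1390574_at at 8 h from 0.43 to 0.62 ± 0.24 (SE; limma, unadjusted p = 0.031, adjusted p = 0.986). Scaling to the 75th percentile gave 0.04 for Mtf1 1377124_at at 20 h. Within day 3, 8 h against untreated gave 0.59 for Mt1, -0.02 for Mt3 and -0.09 for Mtf1 1377124_at, 20 h gave -0.04 for Mtf1 1390574_at, 20 h against 8 h gave -0.13 for Mt1, -0.11 for Mt2A and 0.05 for Mtf1 1377124_at, and both times gave 0.08 for Mt3. Within day 1, 20 h gave 0.41 for Mt2A, 0.04 for Mtf1 1377124_at and 0.30 for Mtf1 1393372_at.

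Leaving out each array in turn, 8 h against untreated ranged from -0.25 to 0.26 for Mt1, -0.04 to 0.11 for Mt2A, -0.06 to 0.07 for Mtf1 1377124_at and -0.07 to 0.20 for Mtf1 1393372_at. At 20 h the ranges were -0.10 to 0.48 for Mt1, -0.07 to 0.43 for Mt2A and -0.10 to 0.07 for Mtf1 1377124_at. For 20 h against 8 h they were -0.13 to 0.46 for Mt1, -0.11 to 0.39 for Mt2A, -0.12 to 0.05 for Mtf1 1377124_at and -0.07 to 0.20 for Mtf1 1393372_at. For both times together they were -0.17 to 0.26 for Mt1 and -0.02 to 0.23 for Mt2A. The lowest values of Mt1 and Mt2A at 20 h came without 20 h replicate 1, and at 8 h without untreated replicate 3. The number of probe sets called ranged from 0 to 8 at 20 h (8 without 20 h replicate 2), 0 to 1 at 8 h and over both times (1 without 8 h replicate 2), and 0 to 1 between the times (1 without 8 h replicate 2, and 1 without 20 h replicate 2). Where 1 array was left in a group, it was taken to vary like the other groups. A filter at the 60th percentile dropped Mtf1 1390574_at. Signal over background limits Mt1 and Mtf1 1390574_at, which are dim, and on arrays no counting error can be given.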

Other observations

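A probe set outside the members, 1371237_a_at, is annotated to 3 genes at once, Mt1f, Ttr and Mt1, so its signal cannot be assigned to Mt1. It had 8470.3, 8121.8 and 10213.9 on the untreated arrays, 12169.0 and 10586.9 on the 8 h arrays, and 9583.7 and 11075.0 on the 20 h arrays. Set against the untreated array of the same day it was higher by 0.25 and 0.05 on the 8 h arrays and by 0.18 and 0.12 on the 20 h arrays, on the log2 scale. Both 8 h arrays lay above all 3 untreated arrays, as did 7.59% of all probe sets, and 20 h replicate 1 did not. In limma without the filter its log2 fold change was 0.35 ± 0.17 (SE) at 8 h, 0.21 ± 0.17 (SE) at 20 h and 0.28 ± 0.14 (SE) over both times. Like Mt1 and Mt2A it was thus higher on 4 of 4 cadmium arrays than on the array of the same day, as were 12.2% of all probe sets. Again 3 of the 4 differences rest on untreated replicate 3.

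Mt4, the metallothionein known from stratified epithelium, lies next to Mt3 and had a signal between 3.0 and 12.2 on the 7 arrays, below the filter. Its upstream window holds 1 core of the metal response element; 20.6% of windows hold 1 or more.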
